A study of Stylosanthes guianensis with 6 samples.

Results

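The 10 unigenes (assembled transcripts) described here carry organelle-encoded genes of photosynthesis and respiration in leaves of stylo (Stylosanthes guianensis), a tropical forage legume. They were chosen from the study's list of genes that differed between Mn toxicity and control leaves, as the unigenes whose protein match was marked as plastid or mitochondrial and belonged to the photosynthetic or respiratory machinery. The 10, of 102864 unigenes in the files, comprise 6 plastid-encoded and 4 mitochondrion-encoded ones, and they are not a full count of such unigenes. Because the same 6 libraries chose them, their differences between the treatments are given as a description and without a p-value, and the copy of the list used here was shortened, so that no unigene just outside it could be set beside them. The match tables list 11 further organelle-encoded unigenes, and 4 of these (psbC, psaA, ndhD and cox1) fit the same description.

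Leaves were harvested after 10 d in nutrient solution with 400 μM MnSO4 (Mn toxicity) or 5 μM MnSO4 (control), and 3 libraries were sequenced per treatment. All plants were the genotype 'TF303', 30-d-old seedlings when the treatment began, and a biological replicate was a hydroponic box of 4 seedlings, so that each library is a pool of plants. The unit of these concentrations is mM in the sample labels and μM in the series' design text, and the second was used. The values are RPKM (reads per kilobase of unigene, scaled to the mapped reads of the library), and the whole reads behind them were recovered from the steps between low values. The library totals recovered in this way were 37.8, 36.2 and 37.7 M reads (megareads) under Mn toxicity and 36.1, 37.0 and 31.1 M reads in the control. They are the totals behind the RPKM and not the clean reads that the paper counts. With them, 1 read on a unigene of 1 kb was worth 0.0265 to 0.0321 RPKM.

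Plastids and mitochondria keep small genomes of their own, which encode core subunits of the membrane complexes that move electrons and protons, while most other subunits are made from nuclear genes and imported. In leaves, the plastid genome supplies the reaction-centre proteins of both photosystems and parts of the ATP synthase and the NADH dehydrogenase-like complex. The mitochondrial genome supplies subunits of respiratory complex I, cytochrome c oxidase and ATP synthase. Excess Mn is known to injure leaves, with chlorosis as a visible sign.

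In all 10 members the same 2 Mn toxicity libraries were high. Mn toxicity replicates 1 and 3 lay above every control library in 10 of 10, Mn toxicity replicate 2 lay above all control libraries in 0 of 10, and the treatments therefore overlapped in every member. Over all 30913 unigenes tested, replicates 1 and 3 were above every control while replicate 2 was not in 0.741% (5.92% under median-of-ratios scaling, which is described below), and all 3 Mn toxicity libraries were above all 3 controls in 9.41%. Since these libraries chose the members, nothing is read from the difference. For this reason each library is given separately below, and a mean over the 3 Mn toxicity libraries describes none of them.

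Photosystem II, which splits water and passes its electrons into the photosynthetic chain, was represented by psbA and psbB. The psbA unigene (TRINITY_DN43869_c1_g4, 851 bp) encodes the D1 reaction-centre protein, which is damaged by light and continually replaced. It had 709.6, 45.5 and 1267 RPKM in Mn toxicity replicates 1, 2 and 3, against 37.2, 72.3 and 58.7 RPKM in control replicates 1, 2 and 3. Replicates 1 and 3 were 12.7 and 22.6 times the control mean and replicate 2 was 0.812 times it, inside the range of the controls. Its protein and nucleotide matches were to wheat, a grass, rather than to a legume as for the other plastid members. The psbB unigene (TRINITY_DN43633_c3_g1, 5639 bp) encodes the CP47 antenna protein that binds chlorophyll around the reaction centre. It had 40.7, 5.46 and 66.8 RPKM under Mn toxicity, against 4.79, 7.47 and 4.31 RPKM in the control. Replicate 2 again fell inside the control range, whereas replicates 1 and 3 stood at 7.37 and 12.1 times the control mean.

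The chloroplast ATP synthase, which makes ATP from the proton gradient across the thylakoid membrane, had 2 members. The atpB/atpE unigene (TRINITY_DN44146_c1_g7, 4725 bp) was matched to the catalytic beta subunit and also carried the epsilon domain, so that both genes were counted as 1 unigene. Its RPKM was 293, 55.2 and 493 under Mn toxicity, against 65.6, 77.3 and 65.8 in the control. It was the best covered member, with 52328, 9431 and 87810 reads under Mn toxicity and 11196, 13527 and 9681 reads in the control. Here replicate 2 lay below all 3 control libraries. The atpI unigene (TRINITY_DN43223_c3_g8, 1198 bp) encodes subunit a of the proton channel. It had 7.96, 2.42 and 11.5 RPKM under Mn toxicity, against 1.09, 2.64 and 2.63 RPKM in the control, where replicate 1 was the low one.

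The other plastid members were ndhF and ccsA. The ndhF unigene (TRINITY_DN44034_c1_g4, 1604 bp) encodes a subunit of the NADH dehydrogenase-like complex, which returns electrons to the plastoquinone pool in cyclic electron flow. It had 1.16, 0.328 and 2.31 RPKM under Mn toxicity, against 0.293, 0.438 and 0.421 RPKM in the control. The ccsA unigene (TRINITY_DN14016_c0_g2, 1194 bp) encodes a protein that attaches haem to c-type cytochromes. It had 8.54, 1.13 and 17.3 RPKM under Mn toxicity, against 0.974, 1.58 and 0.753 RPKM in the control. Both followed the order of psbA and psbB, with replicate 2 inside the control range and replicate 3 the highest of all libraries.

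The 4 mitochondrion-encoded members were much less covered, with 8 to 31 reads in Mn toxicity replicate 2 and 4 to 50 reads in the control libraries. The nad6 unigene (TRINITY_DN42736_c0_g1, 1289 bp), for a membrane subunit of complex I, had 1.13, 0.172 and 0.782 RPKM under Mn toxicity, against 0.172, 0.293 and 0.0997 RPKM in the control. The cox2 unigene (TRINITY_DN42778_c0_g4, 1925 bp) encodes the subunit of cytochrome c oxidase that receives electrons from cytochrome c. It had 1.99, 0.273 and 2.15 RPKM under Mn toxicity, against 0.403, 0.645 and 0.417 RPKM in the control, and replicate 2 was below all 3 controls. The atp6 unigene (TRINITY_DN42736_c0_g6, 1663 bp), for the proton-channel subunit of the mitochondrial ATP synthase, had 1.94, 0.515 and 2.84 RPKM under Mn toxicity, against 0.516, 0.812 and 0.270 RPKM in the control. The atp4 unigene (TRINITY_DN42778_c0_g6, 2540 bp), for a subunit of the stalk that holds the same enzyme together, had 0.897, 0.239 and 0.606 RPKM under Mn toxicity, against 0.0981, 0.298 and 0.126 RPKM in the control. In all 4, replicates 1 and 3 were at 3.48 to 6.0 times the control mean. The nad6 and atp6 unigenes share an assembly component, as do cox2 and atp4, so that the 4 are not 4 separate assemblies.

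**Figure D1:**
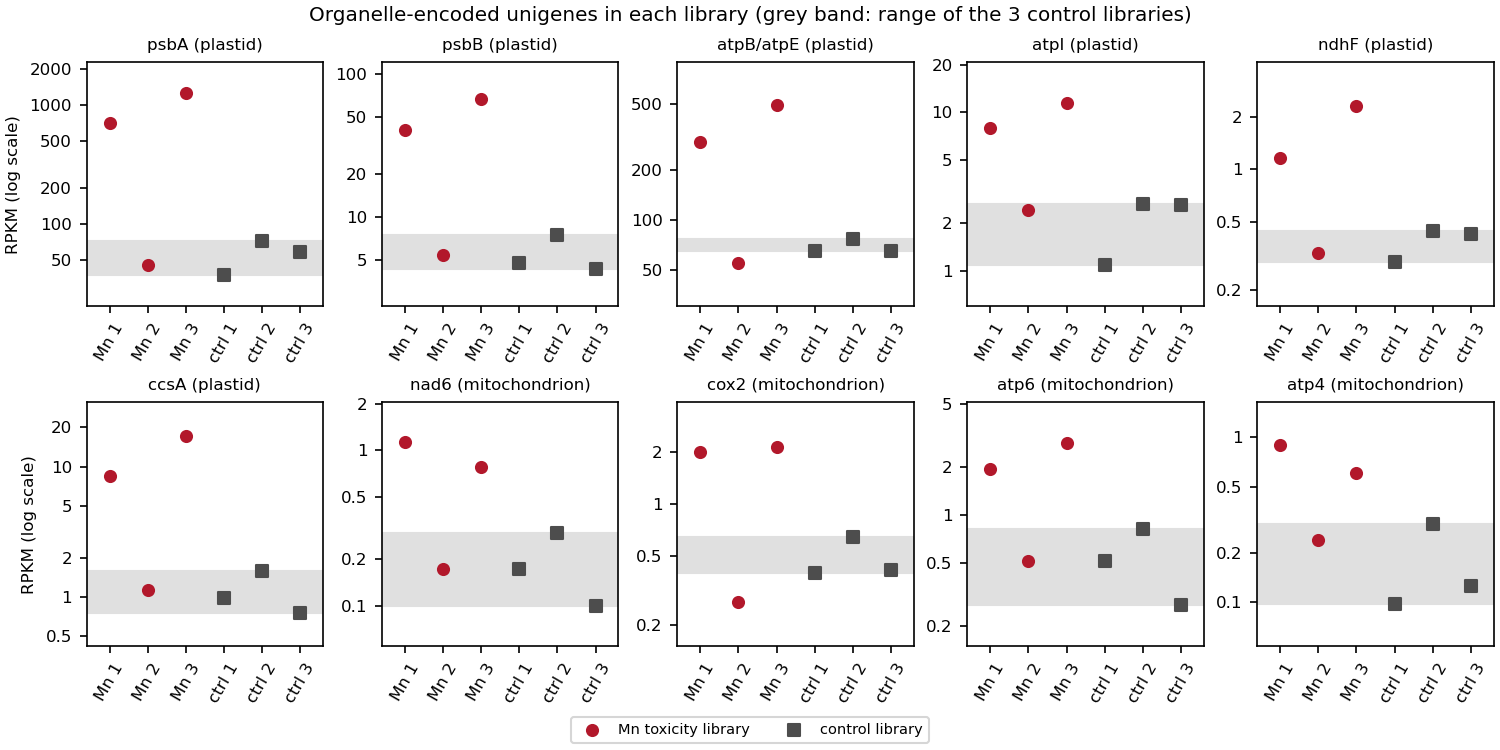
RPKM (log scale) of the 10 organelle-encoded unigenes in each library, with 3 Mn toxicity libraries (red circles) and 3 control libraries (dark squares), and the grey band for the range of the controls. Mn toxicity replicates 1 and 3 lie above the band in all 10 panels, and replicate 2 lies inside it in 8 panels and below it for atpB/atpE and cox2.

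Setting the recovered reads of Mn toxicity replicate 2 against those of the 3 controls together gave ratios of 0.553 to 1.35. The ratio was 0.812 for psbA (exact 95% interval 0.765 to 0.862) and 0.791 for atpB/atpE (0.773 to 0.809), and 0.553 for cox2 (0.320 to 0.911). The intervals of the other 7 members included 1. These intervals cover counting error only, so that they do not include the spread between boxes of plants, and the difference of replicate 2 from the controls was within the spread of the control libraries in 8 of 10 members.

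The 2 libraries with high values did not rank the members alike. All 6 plastid-encoded members had more reads per library read in Mn toxicity replicate 3 than in replicate 1, by 1.45 times (atpI, 1.26 to 1.66) to 2.03 times (ccsA, 1.79 to 2.30). The mitochondrion-encoded members ranged from 0.675 times (atp4, 0.475 to 0.953) and 0.692 times (nad6, 0.445 to 1.07) through 1.08 times (cox2, 0.854 to 1.36) to 1.46 times (atp6, 1.15 to 1.85). The lowest plastid value and the highest mitochondrial value thus met at nearly the same ratio. With 1 library on each side, this compares the libraries and not the treatments.

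**Figure D2:**
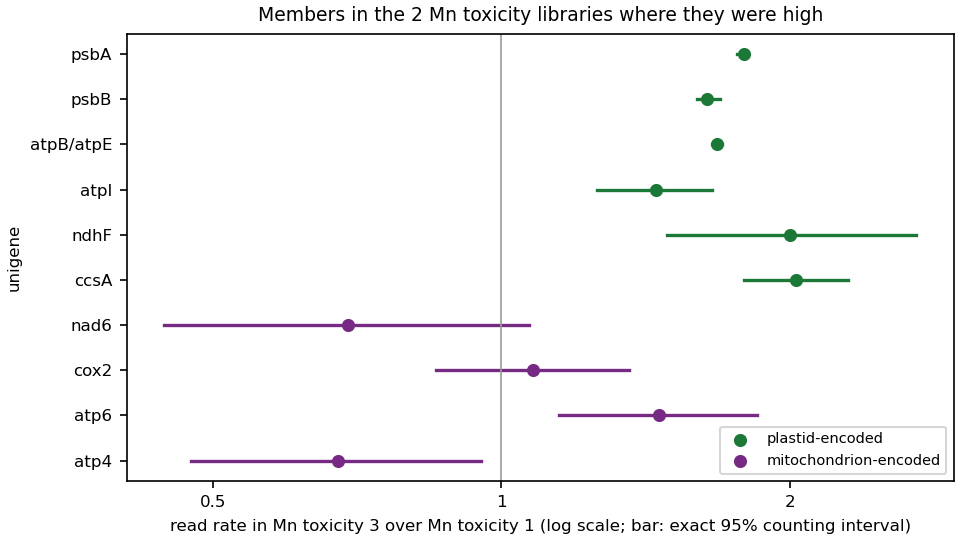
Read rate of each member in Mn toxicity replicate 3 over that in Mn toxicity replicate 1 (log scale), with the exact 95% counting interval as a bar, plastid-encoded members in green and mitochondrion-encoded ones in purple. The 6 plastid members lie at 1.45 to 2.03 with intervals above 1, and the 4 mitochondrial members lie at 0.675 to 1.46.

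Among the controls, replicate 2 was the highest library in all 10 members. Its read rate was 1.18 times (atpB/atpE, 1.15 to 1.2) to 2.68 times (atp4, 1.44 to 5.07) that of control replicates 1 and 3 together, although for ndhF (0.724 to 2.10) and nad6 (0.909 to 5.01) the counting interval included 1. Control replicate 2 was the highest control in 25.5% of all tested unigenes.

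On the scale of RPKM, which divides by length, the members covered a wide range of levels in control leaves. The atpB/atpE unigene averaged 69.6 ± 6.68 RPKM and psbA 56.1 ± 17.7 RPKM (SD, n = 3), and their control ranges overlapped. Next came psbB with 5.52 ± 1.70 RPKM, atpI with 2.12 ± 0.893 RPKM and ccsA with 1.1 ± 0.43 RPKM. The ranges of atpI and ccsA overlapped as well, whereas psbB stayed apart from both. The remaining 5 members lay close together, at 0.533 ± 0.271 (atp6), 0.488 ± 0.136 (cox2), 0.384 ± 0.0788 (ndhF), 0.188 ± 0.0978 (nad6) and 0.174 ± 0.108 RPKM (atp4), and from one to the next in this order their control ranges overlapped or met.

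Ratios between members within a library do not depend on how the libraries are scaled, and they show that the members did not change by one common factor. The psbA to atpB/atpE ratio of RPKM was 2.42, 0.825 and 2.57 in the Mn toxicity libraries, against 0.567, 0.936 and 0.891 in the control libraries. Thus psbA was the more abundant of the pair in Mn toxicity replicates 1 and 3, and atpB/atpE in the other 4 libraries. The psbA to atpI ratio was 89.2, 18.8 and 110 under Mn toxicity, against 34.2, 27.4 and 22.3 in the control. The psbA to psbB ratio, between 2 subunits of the same photosystem, was 17.4, 8.34 and 19.0 under Mn toxicity, against 7.76, 9.68 and 13.6 in the control. In each of these psbA ratios Mn toxicity replicates 1 and 3 were above every control and replicate 2 was not, so that the treatments overlapped. In the mitochondrial pair atp6 and cox2 the ratio was 0.974, 1.89 and 1.32 under Mn toxicity, against 1.28, 1.26 and 0.648 in the control.

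In the fit across all unigenes (limma on log2(RPKM + 0.5), two-sided), a unigene was called where its Benjamini-Hochberg adjusted p was below 0.05 and its log2 fold change was 1 or more in either direction. In that fit, 8 of the 10 members passed the minimum mean of 0.5 RPKM. The nad6 and atp4 unigenes did not, and ndhF and cox2, whose control means were under it, passed through the Mn toxicity libraries. None of the 8 was called, beside 646 unigenes called higher (2.09% of those tested) and 5.78% called in either direction. Limma voom, run on the recovered reads, called none of them either. The fitted log2 fold changes, which the pseudocount makes smaller for low unigenes, were 2.67 ± 0.96 for psbA, 2.12 ± 0.72 for psbB, 2.03 ± 0.71 for ccsA, 1.52 ± 0.62 for atpB/atpE, 1.42 ± 0.51 for atpI, 1.0 ± 0.45 for atp6, 0.83 ± 0.43 for ndhF and 0.81 ± 0.47 for cox2 (± SE). Their median was 1.47, beside −0.20 for all unigenes tested. The SD among the Mn toxicity libraries on this log2 scale had a median of 1.35 over the 8 members and 0.47 over all tested unigenes, and among the controls it was 0.38 and 0.12.

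The count of calls moved most with 1 library. Without Mn toxicity replicate 2, 8 of 8 were called higher, with a background of 2.59% called higher over all unigenes. The log2 fold changes were then 4.12 ± 0.33 for psbA, 3.16 ± 0.30 for psbB, 3.02 ± 0.37 for ccsA, 2.45 ± 0.22 for atpB/atpE, 2.01 ± 0.36 for atpI, 1.5 ± 0.32 for atp6, 1.39 ± 0.26 for cox2 and 1.29 ± 0.31 for ndhF. Leaving out a library because it stands apart in these genes is a description of how the values depend on it and no support for a difference.

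The scaling of the libraries moved the sizes but no direction. Median-of-ratios scaling, which equalises the typical unigene, moved the median over all unigenes to 0.00 and that of the 8 members to 1.71, and called none of them beside a background of 4.37%. With Mn toxicity replicate 2 also left out, an alternative chosen after the data were seen, 8 of 8 were called beside a background of 5.95%. Scaling to the same sum of RPKM moved the median over all unigenes to −0.52 and that of the members to 1.09, and called psbA and psbB beside a background of 0.935%. In every one of the 17 alternatives the fitted value of each member tested was above 0. The same libraries chose the members, so this sign is a description and no support for a difference.

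The high values of the members came together with a large share of reads in other, mostly unnamed unigenes. A set was formed of unigenes that took at least 0.1% of the reads of some library and had a highest share over 8 times the lowest. The rule was met by 40 unigenes, among them psbA and atpB/atpE, and the 38 others took 23.4, 1.59 and 38.3% of the reads in Mn toxicity replicates 1, 2 and 3, against 0.934, 1.73 and 0.929% in control replicates 1, 2 and 3. The 6 plastid members took 0.224, 0.0335 and 0.382% of the reads under Mn toxicity, against 0.0372, 0.0475 and 0.0390% in the control. The 4 mitochondrial members took 0.00108, 0.000221 and 0.00114% under Mn toxicity, against 0.000210, 0.000373 and 0.000170% in the control. All 3 had replicates 1 and 3 high, replicate 2 near the controls and control replicate 2 the highest control. The 38 unigenes had a median length of 318 bp, and 1 of them, TRINITY_DN47995_c11_g1, is described in the tables used here, with a chloroplast genome as its nucleotide match and a hypothetical protein of common bean as its protein match. Their part in the values of the members was not tested. Counted over the reads outside these 38 unigenes, the plastid members stood at 7.01, 0.816 and 14.8 times the control mean in the Mn toxicity libraries and the mitochondrial members at 5.55, 0.883 and 7.26 times. Most reads of the plastid members came from psbA and atpB/atpE. Over all reads, the 8 members other than these 2 stood at 6.87, 0.991 and 11.2 times the control mean. In whole leaves, more transcript per organelle, more organelles per cell and a smaller pool of other RNA cannot be told apart. Nor can they be told from a difference in how single libraries were made, for which no mRNA-enriching step is named.

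**Figure D3:**
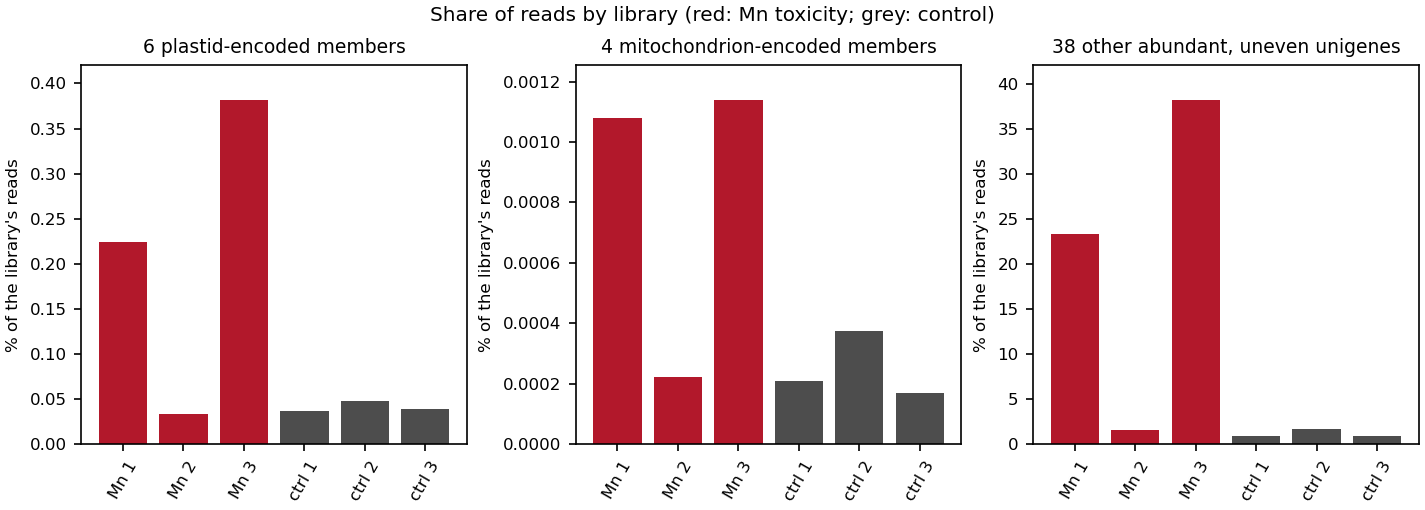
Share of each library's reads (%) taken by the 6 plastid-encoded members, the 4 mitochondrion-encoded members and the 38 other abundant and uneven unigenes, in 3 Mn toxicity libraries (red) and 3 control libraries (grey). In all 3 panels the bars of Mn toxicity replicates 1 and 3 are the highest, and that of replicate 2 is near the controls, at 0.0335%, 0.000221% and 1.59%.

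RNA of other organisms was looked at through a list. The tables used here hold 24 unigenes with a protein match in a fungus, oomycete, alga or protist, and they summed to 318, 291 and 550 reads under Mn toxicity, against 424, 433 and 1146 reads in the control. Of the 24, 4, 9 and 3 were at 0 in the Mn toxicity libraries and 11, 12 and 12 in the control libraries. Control replicate 3 thus had the most reads, of which 626 came from 1 unigene, TRINITY_DN37450_c0_g1, whereas the number of these unigenes detected was highest in Mn toxicity replicates 1 and 3. They were described in the same list of differing genes, so that their direction is not independent of it, and their part in the values of the members was not tested. Nuclear leaf markers such as the Rubisco small subunit have no description in the tables used, and CHLH, which is given below, was detected in every library.

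The 11 further organelle-encoded unigenes, which the same list also chose, had replicates 1 and 3 above every control in 11 of 11. Replicate 2 was the lowest Mn toxicity library in all 11, but it was above all controls in 5 of them. The psbC unigene (CP43, the other inner antenna of photosystem II) had 87.2, 10.6 and 153 RPKM under Mn toxicity, against 8.57, 14.7 and 9.0 RPKM in the control. The psaA unigene (a reaction-centre protein of photosystem I) had 39.1, 4.88 and 69.9 RPKM under Mn toxicity, against 3.29, 6.23 and 3.41 RPKM in the control. In replicates 1 and 3 both were further above their control mean than psbB was. The ndhD and cox1 unigenes, which encode subunits of the same complexes as ndhF and cox2, were at 2.59 and 3.96 times the control mean in replicate 1, 1.02 and 1.08 times in replicate 2, and 4.34 and 4.46 times in replicate 3. Genes of the plastid's own expression machinery were on the list as well. The plastid RNA polymerase unigene rpoC1 had 1.11, 0.169 and 1.12 RPKM under Mn toxicity, against 0.0617, 0.120 and 0.0716 RPKM in the control, and the ribosomal protein unigene rpl23 had 6.39, 1.25 and 8.20 RPKM under Mn toxicity, against 1.05, 1.61 and 1.39 RPKM in the control. The 2 other polymerase unigenes and ycf2, with the mitochondrial ribosomal protein unigenes rps3 and rps14, were at 2.59 to 11.9 times the control mean in replicates 1 and 3. The 11.9 was for a polymerase unigene (rpoC) with 30 reads in Mn toxicity replicate 1, against 2, 3 and 2 reads in the control. It did not reach the minimum mean of 0.5 RPKM, nor did rpoC1, ycf2 and rps14, and control libraries held 1 to 16 reads of each.

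Unigenes for nuclear-encoded partners of the organelles, 8 in all, were taken from the same list. Replicate 2 was the lowest Mn toxicity library in 0 of 8, as in all but 3.63% of all tested unigenes, and the treatments did not overlap in 8 of 8, beside 32% of all tested unigenes. The alternative oxidase AOX2b (TRINITY_DN45645_c2_g5), which passes electrons from ubiquinol to oxygen without pumping protons, had 23.9, 28.4 and 22.2 RPKM under Mn toxicity, against 14.2, 17.3 and 13.1 RPKM in the control. The external NAD(P)H dehydrogenase NDB2, which feeds that pathway, had 4.18, 4.87 and 2.54 RPKM under Mn toxicity, against 1.54, 1.84 and 1.73 RPKM in the control. Mitochondrial phosphate carrier MPT3 had 1.11, 1.94 and 0.815 RPKM under Mn toxicity, against 0.239, 0.218 and 0.173 RPKM in the control. The CcmE-like unigene, for a cytochrome c-type biogenesis protein, was also higher in all 3 Mn toxicity libraries. On the plastid side, CHLH, the subunit of magnesium chelatase at the entry to chlorophyll synthesis, had 217, 408 and 186 RPKM under Mn toxicity, against 703, 691 and 698 RPKM in the control. Plastid terminal oxidase (PTOX) was higher in all 3 Mn toxicity libraries, and the Rubisco chaperonin subunit CPN60B was lower in all 3. As deposited, PTOX, NDB2, MPT3, CcmE and this AOX2b unigene had their highest value in replicate 2. That order depended on the scaling. Median-of-ratios scaling divided Mn toxicity replicates 1, 2 and 3 by 0.977, 1.29 and 0.628. Replicate 2 then became the lowest Mn toxicity library in 3 of the 8 partners (this AOX2b unigene, NDB2 and CcmE) and in 33.4% of all tested unigenes. The treatments still did not overlap in 8 of 8.

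**Figure D4:**
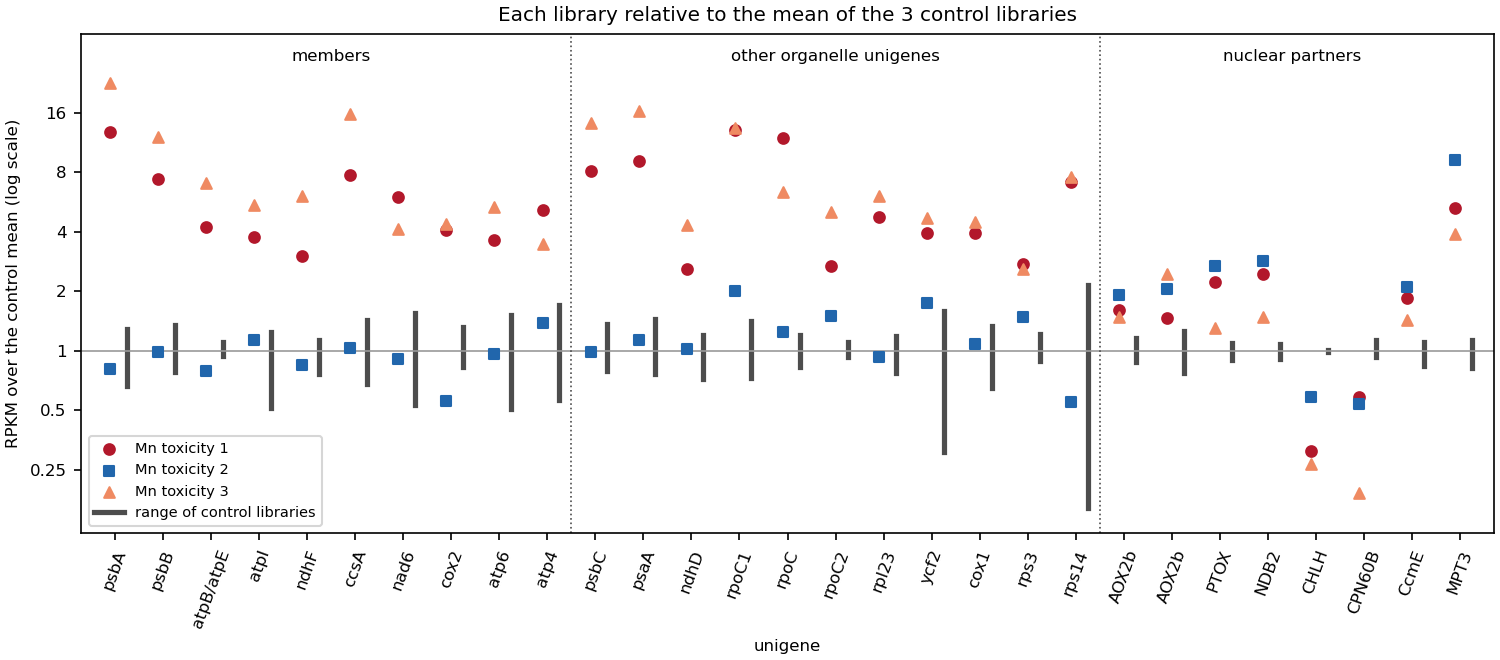
RPKM in each Mn toxicity library (red circle, replicate 1; blue square, replicate 2; orange triangle, replicate 3) over the mean of the 3 control libraries (log scale), with the range of the control libraries as a dark bar, for the 10 members, 11 other organelle unigenes and 8 nuclear partners. Replicate 2 is at 0.559 to 1.38 times the control mean in the members, while for the nuclear MPT3 it is the highest library, at 9.22 times.

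Trinity groups contigs that share sequence into components, and the estimate of reads is divided among them. The 8 components of the members held 89 further unigenes, which were not chosen on the contrast except for 3 that the study's tables list. Among these 3 are the rps3 and rps14 unigenes given above. Of these neighbours 39 passed the minimum mean, none was called beside the 5.78% called in either direction over all unigenes, and 8 had an unadjusted p under 0.05, as did 24.4% of all unigenes tested. Limma voom called 0 of them. Their median log2 fold change was 0.22, from −1.11 to 2.79. Replicates 1 and 3 were above every control while replicate 2 was not in 6 of the 39 (15.4%), against 0.741% of all tested unigenes, and under median-of-ratios scaling in 9 of the 39 (23.1%), against 5.92%. These neighbours can share sequence and reads with the members, which was not tested, so this is not taken as a separate observation of the pattern.

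The neighbours closest to their members were in the components of psbA and atpI. The pattern was held by 2 of the 16 tested neighbours of psbA and 2 of the 5 of atpI, and the others lacked it. TRINITY_DN43869_c1_g6 (274 bp, in the psbA component and on a list of the study) had 817, 57.9 and 1426 RPKM under Mn toxicity, against 36.7, 79.0 and 68.5 RPKM in the control, a fitted log2 fold change of 2.79 ± 0.94 (SE). TRINITY_DN43869_c1_g29 (447 bp), in the same component and not in the tables used here, had 65.0, 5.88 and 114 RPKM under Mn toxicity, against 4.71, 11.7 and 4.38 RPKM in the control, with an adjusted p of 0.12 from limma. In the atpI component, TRINITY_DN43223_c3_g3 (1276 bp) had 38.3, 2.84 and 64.0 RPKM under Mn toxicity, against 4.17, 5.10 and 3.27 RPKM in the control, with an adjusted p of 0.17 from limma. Of the 5 tested neighbours of atpB/atpE, 1 shared the pattern and others did not. TRINITY_DN44146_c1_g2 had 4.02, 1.44 and 5.11 RPKM under Mn toxicity, against 1.21, 1.71 and 1.22 RPKM in the control, with an adjusted p of 0.18 from limma. TRINITY_DN44146_c1_g4 had 10.9, 18.2 and 6.65 RPKM under Mn toxicity, against 24.5, 20.3 and 24.1 RPKM in the control, with an adjusted p of 0.089 from limma. The other 2 neighbours with the pattern were TRINITY_DN43223_c3_g4 in the atpI component and TRINITY_DN42736_c0_g9 in that of nad6 and atp6. None of the 5 tested neighbours of ndhF had it, and 0 of the 5 in the component of cox2 and atp4. Without Mn toxicity replicate 2, 7 of the 39 neighbours were called, 5 higher and 2 lower, beside 16.1% of all unigenes called in either direction.

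**Figure D5:**
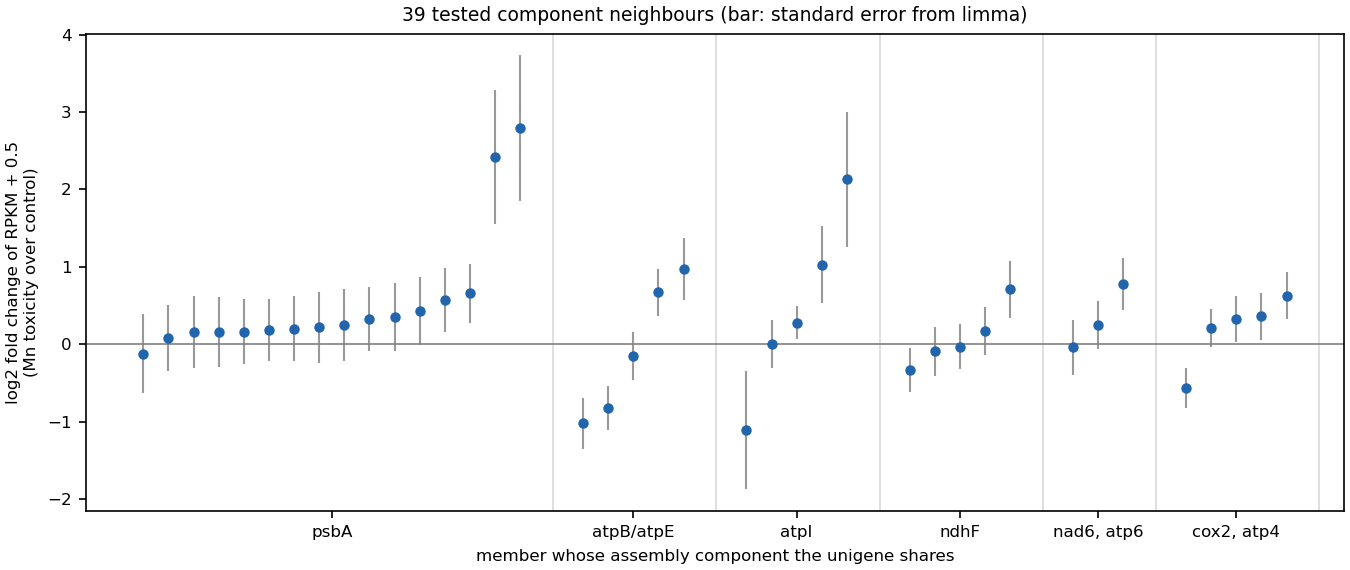
Log2 fold change (Mn toxicity over control, of RPKM + 0.5) of the 39 tested unigenes that share an assembly component with a member, grouped by that member, with the standard error from limma as a bar. The highest, at 2.79, is TRINITY_DN43869_c1_g6 in the psbA component.

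The unigenes most like the members were sought among 1143 candidates with an SD of at least 1 on the log2 scale over the 6 libraries, by Pearson's r with the mean profile of the plastid or the mitochondrial members. Closest to the plastid profile were TRINITY_DN45722_c0_g1 (r = 0.9984), the psbC unigene TRINITY_DN45231_c2_g3 (r = 0.9982) and TRINITY_DN41897_c0_g1 (r = 0.9980), of which the first and the last are among the 38 abundant and uneven unigenes. Closest to the mitochondrial profile were TRINITY_DN44110_c2_g1 (r = 0.9898), TRINITY_DN43869_c1_g29 (r = 0.9883), the psbA neighbour given above, and TRINITY_DN47494_c0_g4 (r = 0.9882). Over the 6 libraries these values are a description, since the points share library, depth and the 2 high libraries. The 38 uneven unigenes, which were chosen by their uneven share over the same libraries, had r of 0.98 to 1.0 with the plastid profile. The 8 nuclear partners had −0.92 to 0.65, with a median of 0.34, beside a median of −0.71 over all tested unigenes.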

How the data were processed

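Conditions and replicate numbers came from the sample labels, and groups followed the Mn concentration. RNA was extracted with TRIzol and sequenced as paired-end reads, and no step that enriches mRNA is named in the sources used. The authors assembled the reads with Trinity, mapped them with Bowtie2 2.2.3 and estimated abundance with RSEM, and the RPKM values were deposited as 1 table per library. The authors called differential expression with DESeq2, whose results were used only to find the listed unigenes and their descriptions. No genome was used.

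Here the treatments were set against each other on log2(RPKM + 0.5) by the moderated test of limma 3.58.1 (R 4.3.3) with an intensity trend, over unigenes with a mean of at least 0.5 RPKM. RPKM are not counts, so the authors' DESeq2 was not the main test. Whole reads were recovered from the steps between RPKM in Python 3.11.15 (99.62 to 99.78% of each recovered library total, within 0.01 of a whole read) and used for intervals, shares and limma voom. On 5000 simulated unigenes, 98.8% of those above 0 in at least 4 libraries were returned exactly, and the limma fit was also tested on simulated data. The p-values weigh the difference between treatments against the spread between libraries, which holds the boxes of plants and the handling of each library.

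The members and all lists were chosen with earlier results of these data known. Named were the 10 members, the 11 other organelle unigenes, 8 nuclear partners, the component neighbours (those nearest to and farthest from their members by name, the others by count) and the 3 unigenes most alike to each profile. Alternatives were pseudocounts of 0.1 and 1, other minimums, 3 other scalings, no trend, voom, a replicate block and leaving out each library.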

Additional observations from a re-analysis of the deposited data

How the results depend on the processing

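The number of members called was 0 as deposited, 2 with the same sum of RPKM, 0 to 8 when leaving out single libraries and 8 with median-of-ratios scaling without Mn toxicity replicate 2, the added alternative. The number of component neighbours called was 0, and 3, 0 to 7 and 6 in the same settings. Over all unigenes, 646 were called higher and 1141 lower. Higher calls numbered 1350 with median-of-ratios scaling, 289 with the same sum, 1252 with quantile normalization, 1838 in the added alternative and 148 to 1748 without single libraries. Without control replicate 1, 2 or 3 they numbered 198, 187 and 148, and without Mn toxicity replicate 1, 2 or 3 they numbered 213, 802 and 1748. Lower calls numbered 141 to 4175 without single libraries. The cause of these shifts was not tested. Fits without a single library also have fewer degrees of freedom, and the part of this was not tested either. The 134 fitted values of the 8 members tested in the main fit, over 17 alternatives, were all above 0. These libraries chose the members, so that sign is no separate support. The median over the members fitted was 0.93 to 2.7.

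Samples with the same replicate number did not deviate together (r = 0.0752, −0.146 and −0.0841 for numbers 1, 2 and 3). The highest r of any pair was 0.225, for Mn toxicity replicate 3 with control replicate 2. These values give no ground for pairing by number, but with 3 libraries per treatment they cannot settle whether the boxes were paired. With the replicate block, 5 members (psbA, psbB, atpB/atpE, atpI and ccsA) and 4 neighbours were called, and over all unigenes 925 were called higher (2.99% of those tested) and 1768 lower.

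Depth limited the mitochondrion-encoded members, with as few as 4 reads in a library. Recovered reads of a unigene above 0 in few libraries are lower limits.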

Other observations

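The component of psbA held a group of short contigs that were missing from 1 library. Of its 35 other unigenes, 32 were at 0 in control replicate 3 and above 0 in each of the other 5 libraries, with lengths of 209 to 565 bp. Together they had 170, 218 and 195 reads in Mn toxicity replicates 1, 2 and 3, against 250, 227 and 0 reads in control replicates 1, 2 and 3. The psbA unigene itself was present in that library, with 1554 reads. In the components of psbB, atpI and of cox2 and atp4, the reverse was found for 4 contigs, which were above 0 in control replicate 3 alone. The contig in the component of cox2 and atp4 had 1 read there. Over all unigenes, 129 had at least 10 reads in control replicate 3 and 0 in every other library. The same count was 39, 11 and 99 for Mn toxicity replicates 1, 2 and 3 and 0 and 2 for control replicates 1 and 2. Over all unigenes, 1083 were at 0 in control replicate 3 and above 0 in every other library, and the same count was 981, 247 and 2395 for Mn toxicity replicates 1, 2 and 3 and 280 and 367 for control replicates 1 and 2.

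A unigene matched to cytochrome c oxidase subunit I, TRINITY_DN37450_c0_g1, had its nucleotide match in a fungal mitochondrion and its protein match in a dinoflagellate, and it was not counted among the mitochondrial unigenes. It had 1.55, 1.97 and 1.35 RPKM under Mn toxicity, against 2.02, 2.41 and 11.7 RPKM in the control, and so was high in control replicate 3 alone.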
